A study of Homo sapiens and Mus musculus with 14 samples.

Results

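The mitochondrial ribosomal protein genes were taken as the protein-coding genes of the RefSeq annotation whose symbol is MRPL or MRPS followed by a number. There were 77 such genes of 19974 protein-coding genes on chromosomes 1 to 22 and X of the human genome build hg38. ATAC-seq, in which a transposase inserts sequencing adapters into accessible DNA, had been run on MDA-MB-436, an established human breast adenocarcinoma line grown in serum-supplemented DMEM. The groups were SMARCAL1 knockout clone 1 (3 libraries, batch 1), SMARCAL1 knockout clone 2 (2 libraries, batch 2) and control cells (3 libraries, batch 1). SMARCAL1 encodes an annealing helicase known for restarting replication forks. The other 6 of the 14 libraries came from the mouse melanoma line B16F10 and were not analysed here. Each knockout group was 1 clone, and since all clone 2 libraries formed a batch of their own, clone 2 and its batch cannot be told apart.

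Each group was represented by 1 peak list in which the replicates had been merged. The lists held 39537 peaks in clone 1, 34572 in clone 2 and 64806 in control, and their median peak widths were 453, 200 and 399 bp in that order. With 1 list per group there was no replicate error to set beside a difference, so no test was made and no p-value is given. A gene was counted as having a gene-end peak where any peak of a list lay within 1000 bp of either annotated end of the gene. "Absent" below means that control had such a peak and the clone's list had none, which depends on the calling threshold and on depth as well as on accessibility. The read depth of the libraries is not known from these lists. Gene-end peaks were found at 1, 1 and 3 of 8 breast epithelial marker genes in clone 1, clone 2 and control. EPCAM had one in every list, KRT8 and KRT18 had one in control, and KRT5, KRT14, TP63, GATA3 and ESR1 had none. Of 4 mesenchymal markers, 2 had a peak in clone 1, 1 in clone 2 and 4 in control, with VIM in every list. Of 4 leukocyte markers, 0 had one in clone 1, 2 in clone 2 (PTPRC and SPI1) and 1 in control (SPI1). Of 3 melanocyte markers, MITF had one in every list. The part of other cell types in the results below was not tested.

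Mitochondrial ribosomes translate the few proteins that are encoded in mitochondrial DNA, all of them subunits of the respiratory chain and ATP synthase. The RNAs of these ribosomes come from the mitochondrial genome, but all of their proteins are encoded in the nucleus, made in the cytosol and imported. The genes are scattered over the chromosomes and are active in nearly all cell types. Relative to bacterial ribosomes the mitochondrial ribosome has gained many proteins of its own, and the protein names carry that history: u for proteins shared by all ribosomes, b for those shared with bacteria and m for those particular to mitochondria. By the protein names in RefSeq, 26 members were universal, 18 bacterial and 31 mitochondrial, and 2 (MRPS24 and MRPS28) had no class there. MRPS30 and MRPS18A are listed as mL65 and mL66, proteins of the large subunit, and were counted with it, which gave 51 large-subunit and 26 small-subunit genes.

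Most mitochondrial ribosomal protein genes had an accessible gene end in every group. Gene-end peaks were present at 51 of 77 members in clone 1 (66.2%), at 49 in clone 2 (63.6%) and at 67 in control (87.0%). Among all protein-coding genes the shares were 50.4% in clone 1, 43.2% in clone 2 and 60.9% in control. All 3 lists held a peak at 43 members (55.8%), against 39.4% of all genes. No list held one at 8 members (10.4%), against 36.4% of all genes. The members' shares were thus above the background in each list and lower in both clones than in control, as they were for all genes.

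Of the 67 members with a control peak, 17 had none in clone 1 (25.4%), against 21.1% of all genes with a control peak. In clone 2 there was none at 20 of the 67 (29.9%), against 30.1%. Neither clone had one at 13 (19.4%), against 15.9%. A further 4 were absent in clone 1 alone and 7 in clone 2 alone. These shares lay close to those over all genes, and little can be read from them about the members. The counts depended on the lengths of the lists. When each list was cut to its strongest 34572 peaks, the absent members numbered 14 in clone 1, 12 in clone 2 and 7 in both, of 59 with a control peak. Those are shares of 23.7%, 20.3% and 11.9%, against 15.9%, 19.96% and 9.36% of all genes, so at equal length the clone 1 share stood further above that of all genes. In the other direction, 10 members had no control peak. A peak was gained at 1 of them in clone 1, where 5.93% of all genes without a control peak gained one. It was gained at 2 in clone 2, against 1.55%, and at 1 in both clones, against 0.564%, and counts this small cannot be read against those shares.

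**Figure D1:**
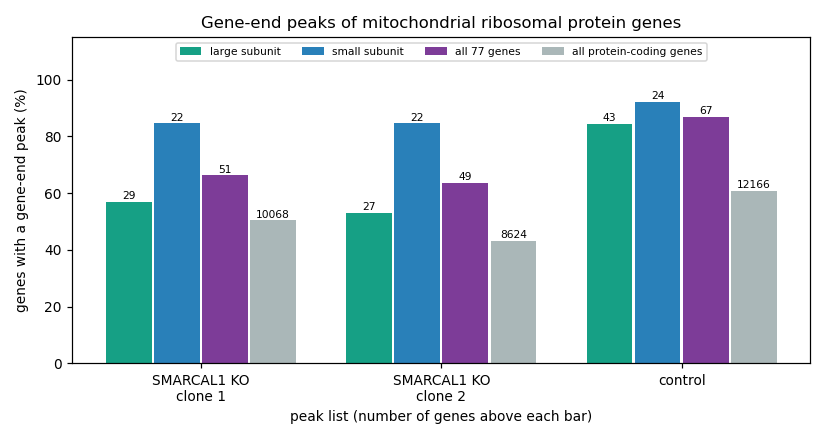
Share of genes (%, vertical axis) with a gene-end peak in clone 1, clone 2 and control, for the mitochondrial ribosomal protein genes beside all protein-coding genes. The members' bars stand at 66.2%, 63.6% and 87.0%, above the 50.4%, 43.2% and 60.9% of all genes.

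The most strongly called members were the same in every group. No label names the unit of the deposited score, whose values fit a −log10 p from peak calling. It was used to rank peaks within a list and is not comparable between lists. MRPS9, which encodes uS9m of the small-subunit head, scored 23.01 in clone 1 (rank 96 of 39537 peaks), 39.7 in clone 2 (rank 86 of 34572) and 34.6 in control (rank 119 of 64806), and was the highest member in each. MRPL50, which encodes mL50 of the large subunit, scored 14.6 in clone 1 (rank 875), 29.1 in clone 2 (rank 624) and 30.04 in control (rank 286). MRPS30, which encodes the large-subunit protein mL65, scored 14.3 in clone 1 (rank 959), 38.4 in clone 2 (rank 107) and 22.1 in control (rank 1247). These 3 genes filled the first 3 places of each list. The other places among the first 5 went to MRPS33 (13.7) and MRPL19 (12.2) in clone 1, to MRPS17 (27.7) and MRPS14 (26.1) in clone 2, and to MRPS31 (19.7) and MRPS14 (19.4) in control. MRPS14 and MRPS17 encode universal proteins of the small subunit, MRPL19 a bacterial-type protein of the large one, and MRPS31 and MRPS33 mitochondrial-specific small-subunit proteins. In the lists where they were not among the first 5, MRPS33 scored 14.5 in clone 2 and 16.6 in control, MRPL19 24.2 and 17.01, and MRPS31 12.1 in clone 1 and 22.4 in clone 2. MRPS14 scored 12.0 in clone 1. MRPS17 scored 6.71 in clone 1 and 12.3 in control, so its place in clone 2 was not shared by the other lists.

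The promoters of the 3 leading genes show what lay under these peaks. They are printed from the RefSeq promoter table (GRCh38.p14, the primary chromosomes of hg38) on the strand of the gene, 5′ to 3′, from 120 bases before the transcript start to the first 30 bases of the transcript. Capitals mark matches to the ETS, YY1, NRF1 and CRE motifs spelled out further on, and a sequence without capitals holds none of them in these 150 bases.
MRPS9 (chr2:105037949-105038098, + strand): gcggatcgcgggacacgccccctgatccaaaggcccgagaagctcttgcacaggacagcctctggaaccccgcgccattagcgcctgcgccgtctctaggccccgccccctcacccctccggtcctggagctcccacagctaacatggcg
MRPL50 (chr9:101398589-101398738, − strand): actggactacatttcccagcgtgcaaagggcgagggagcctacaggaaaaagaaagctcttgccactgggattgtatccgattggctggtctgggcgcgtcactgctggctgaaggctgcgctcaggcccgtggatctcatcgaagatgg
MRPS30 (chr5:44808827-44808976, + strand): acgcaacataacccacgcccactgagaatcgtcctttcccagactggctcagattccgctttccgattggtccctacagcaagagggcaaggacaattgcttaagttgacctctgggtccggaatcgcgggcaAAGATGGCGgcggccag
The MRPS9 peak spanned chr2:105037465-105039014 in clone 1, chr2:105037569-105038472 in clone 2 and chr2:105037422-105038889 in control. The MRPL50 peak spanned chr9:101398223-101399509 in clone 1, chr9:101398443-101399003 in clone 2 and chr9:101398154-101399250 in control. The MRPS30 peak spanned chr5:44808595-44810077 in clone 1, chr5:44808659-44809117 in clone 2 and chr5:44808571-44810008 in control. Each printed window thus lay wholly inside a peak of every list, and the clone 2 peak was the narrowest of the 3 at each gene. MRPS30 carries a YY1 match just after its start, and MRPL50 carries one that begins at base 24 of its transcript and runs past the end of the printed stretch. MRPS9 carries none of these motifs in it. MRPL50 lies head to head with ZNF189, a zinc-finger gene whose start is 233 bp away, so its peak cannot be given to either gene alone.

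Across the members the strongest gene-end peaks ranked like those of genes in general. The median member peak stood at the percentile 70.1 of the clone 1 list, 59.8 of the clone 2 list and 76.3 of the control list, against 70.7, 59.1 and 78.1 for all genes with a peak. The median widths of these peaks were 800 bp in clone 1, 251 bp in clone 2 and 937 bp in control, against 910, 289 and 988 bp for all genes. The members' shares with a peak were above those of other genes, while the ranks of their peaks were close to theirs. The 43 members found in every list scored 5.06 to 23.01 in clone 1, 6.00 to 39.7 in clone 2 and 6.12 to 34.6 in control. Their lowest scores were those of MRPL40 in clone 1 (5.06), MRPL57 in clone 2 (6.00) and MRPS7 in control (6.12). MRPS7, which encodes uS7m of the small-subunit head, scored 5.50 in clone 1 and 6.78 in clone 2. MRPL40, which encodes mL40, scored 6.70 in clone 2 and 6.65 in control, and MRPL57, which encodes mL63, scored 5.52 in clone 1 and 6.45 in control. The positions of a gene within the lists were not always alike. MRPS27, which encodes mS27, stood at the percentile 6.13 in clone 1 (score 5.11), 33.6 in clone 2 (9.61) and 89.1 in control (12.6). MRPS5, which encodes uS5m, stood at 92.0, 79.2 and 84.5, with the scores 10.5, 15.2 and 10.8. Ranks from lists of different lengths do not measure a change in accessibility. A single call was taken to carry at most 5 decimals in clone 1 and control and at most 6 significant digits in clone 2. Some scores have more digits than that and are therefore means over merged replicate calls. Such scores were recognised at 30 of 51 members in clone 1, 20 of 49 in clone 2 and 47 of 67 in control, and a peak without one may still come from several replicates.

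**Figure D2:**
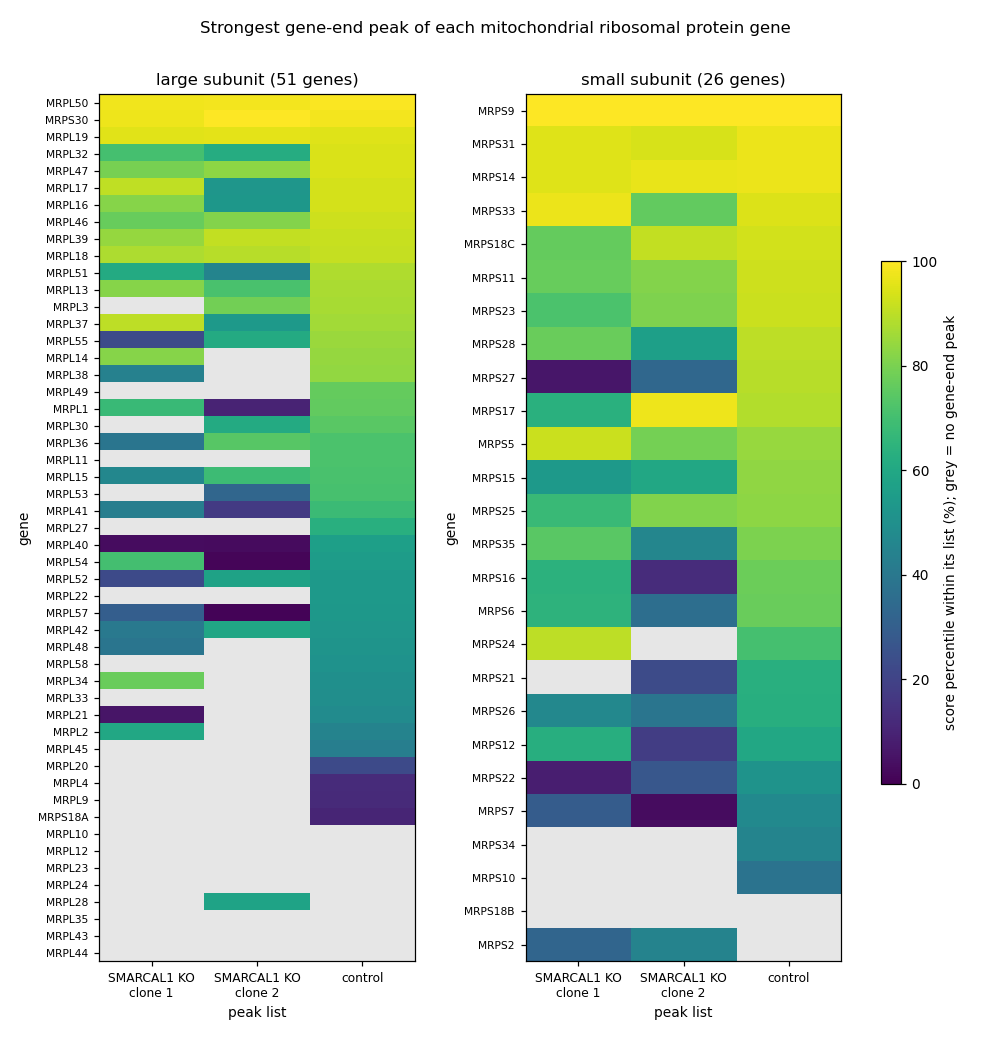
Heat map of the strongest gene-end peak of each mitochondrial ribosomal protein gene (rows, large subunit in the left panel and small subunit in the right) in clone 1, clone 2 and control (columns); colour gives the score percentile within the list (%), and grey means no gene-end peak. MRPS9, MRPL50 and MRPS30 are near the top of the scale in every column, and the 13 rows coloured in control alone are the genes absent in both clones.

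The 13 members with a control peak and none in either clone were 11 large-subunit and 2 small-subunit genes. They were 19.4% of the members with a control peak, against 15.9% of all genes, and are described one by one. Among the large-subunit proteins, MRPL4 and MRPL22 encode uL4m and uL22m, whose bacterial counterparts line the exit tunnel, and they scored 5.10 and 6.47 in control. MRPL45 encodes mL45, which holds the tunnel exit at the inner membrane, and scored 5.91. MRPL11 encodes uL11m of the stalk base, where translation factors bind, and scored 8.04. MRPL27 encodes bL27m, whose bacterial counterpart reaches the peptidyl transferase centre, and scored 7.13. MRPL58, also known as ICT1, encodes a peptidyl-tRNA hydrolase that became a ribosomal protein, and scored 6.32. None of these genes stood above the members' median percentile in control, 76.3, which is the value of MRPL49. The remaining large-subunit genes were MRPL49 (8.79), MRPL33 (6.24), MRPL20 (5.30), MRPL9 (5.10) and MRPS18A (5.06). The small-subunit genes were MRPS34 (5.98), whose protein mS34 is particular to mitochondria, and MRPS10 (5.81), which encodes uS10m of the head. The 13 control scores ran from 5.06 to 8.79, at the percentiles 10.3 to 76.3 of the control list, and 7 of them were recognisable means. No peak lay close to their transcript starts in the clones. Measured from those starts, the nearest one was 4342 to 117625 bp away in clone 1 and 2698 to 1164133 bp away in clone 2.

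MRPL49 and MRPL11 had the highest control scores of the 13, and their promoters are shown beside that of MRPS2, the member that gained a peak in both clones, printed as before.
MRPL49 (chr11:65122063-65122212, + strand): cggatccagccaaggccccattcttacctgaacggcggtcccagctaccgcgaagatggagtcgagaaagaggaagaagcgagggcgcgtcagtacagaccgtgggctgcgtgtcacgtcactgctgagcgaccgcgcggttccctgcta
MRPL11 (chr11:66438819-66438968, − strand): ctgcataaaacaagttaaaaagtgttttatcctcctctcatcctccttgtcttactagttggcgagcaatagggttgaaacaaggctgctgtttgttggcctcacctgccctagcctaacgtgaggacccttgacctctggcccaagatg
MRPS2 (chr9:135500562-135500711, + strand): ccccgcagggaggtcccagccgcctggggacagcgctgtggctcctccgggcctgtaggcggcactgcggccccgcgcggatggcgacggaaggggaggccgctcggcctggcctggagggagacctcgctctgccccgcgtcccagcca
None of the 3 carries a capital. The control peak at MRPL49 spanned chr11:65121975-65122634 and ranked 15339 of 64806. MRPL49 encodes mL49, and its start lies 49 bp from the start of FAU, which encodes a cytosolic ribosomal protein fused to a ubiquitin-like protein, so the absence counts for both genes and cannot be given to either. The nearest peak was 12247 bp from the MRPL49 start in clone 1 and 4250 bp in clone 2. The control peak at MRPL11 spanned chr11:66438337-66439506 and ranked 18440, and the nearest peak was 27679 bp away in clone 1 and 27782 bp in clone 2. MRPS2, which encodes uS2m of the small subunit, had a peak scored 5.60 in clone 1 (chr9:135500437-135500813, a recognisable mean) and one scored 10.5 in clone 2 (chr9:135500575-135500702). The nearest control peak was 19884 bp from the MRPS2 start. Both scores were modest for their lists, at the percentiles 32.8 and 44.6, and the MRPS2 start lies 813 bp from that of the neighbouring gene PIERCE1.

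Genes absent in a single clone, whose shares over all genes are given above, included the most strongly called of all absent members. In clone 2 alone, MRPL14 was absent, which encodes uL14m at the interface of the subunits: it scored 8.25 in clone 1 and 10.7 in control. MRPL38, which encodes mL38, scored 5.91 in clone 1 and 10.6 in control. MRPS24, a small-subunit gene, scored 9.83 in clone 1 and 7.87 in control. MRPL2, which encodes uL2m near the peptidyl transferase centre, scored 6.49 in clone 1 and 5.96 in control. Those 4 are followed by MRPL34, MRPL48 and MRPL21, with 7.76, 5.73 and 5.10 in clone 1 and 6.25, 6.37 and 6.17 in control. The clone 1 peak of MRPL21 lay 868 bp inside one gene end. A control peak scored 5.39 covered its other end, where clone 1 had none. In clone 1 alone, MRPL3 was absent, which encodes uL3m, also near the peptidyl transferase centre: it scored 15.1 in clone 2 and 11.6 in control. MRPL30, which encodes uL30m, scored 12.2 in clone 2 and 8.48 in control. MRPL53 scored 9.57 in clone 2 and 7.92 in control, and MRPS21, which encodes bS21m, 8.82 and 7.12. MRPL3 stood at the percentile 86.7 of the control list, MRPL14 at 84.3 and MRPL38 at 83.9, and each was nonetheless present in the other clone. MRPL28, which encodes bL28m, was the one member found in clone 2 alone, with a peak scored 11.8 at chr16:370597-370718. The nearest peak to the MRPL28 start was 16996 bp away in clone 1 and 7727 bp away in control.

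Whether a member was found again in a clone went with its control score. The members found in clone 1 had a median control score of 10.8 and those absent there 6.32. For clone 2 the medians were 11.4 and 6.25. Over all genes the medians were 10.6 and 6.02 for clone 1 and 11.3 and 6.22 for clone 2, so the members showed the pattern of the whole list. Of the 31 members above the percentile 80 of the control list, 1 was absent in clone 1 and 2 in clone 2, against 1.85% and 3.99% of all genes in that band. Between the percentiles 60 and 80 there were 14 members, of which 6 were absent in clone 1 and 4 in clone 2, against 18.9% and 31.6%. Between 40 and 60 there were 17, of which 5 and 9 were absent, against 44.9% and 64.8%. The 5 members below 40 were absent in both clones, where 78.0% of all genes up to the percentile 20 and 64.1% of those from 20 to 40 were absent in clone 1. In clone 2 these 2 shares were 90.4% and 79.9%.

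**Figure D3:**
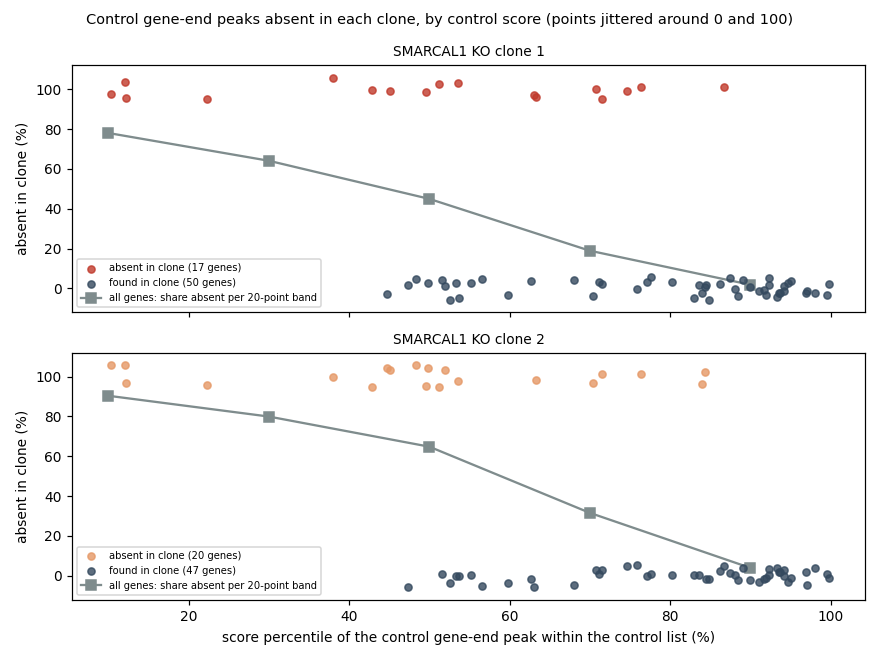
Whether each mitochondrial ribosomal protein gene with a control peak was absent (100%) or found (0%) in clone 1 (upper panel) and clone 2 (lower panel), with points jittered vertically, against the score percentile of its control peak (%, horizontal axis); the line gives the share of all genes absent in each band of 20 percentiles. The lowest-scored 5 members are absent in both panels, and in the highest band 1 and 2 members are absent.

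The subunits differed in their counts. Over all protein-coding genes, a gene-end peak was present at 50.4% in clone 1, 43.2% in clone 2 and 60.9% in control. Of 51 large-subunit genes, 29 had a peak in clone 1 (56.9%), 27 in clone 2 (52.9%) and 43 in control (84.3%). Of 26 small-subunit genes, 22 had one in clone 1 (84.6%), 22 in clone 2 (84.6%) and 24 in control (92.3%). Of those with a control peak, 14 of 43 large-subunit genes were absent in clone 1 (32.6%), against 3 of 24 small-subunit genes (12.5%). In clone 2 the counts were 17 of 43 (39.5%) and 3 of 24 (12.5%). For all genes with a control peak the absent shares were 21.1% in clone 1 and 30.1% in clone 2. The control peaks of the large-subunit genes also ranked lower, with a median percentile of 71.5 against 83.3. Within the bands of control percentile the numbers were small. From 40 to 60, 4 of 13 large-subunit genes and 1 of 4 small-subunit genes were absent in clone 1, and 8 of 13 and 1 of 4 in clone 2. From 60 to 80 the counts were 5 of 9 and 1 of 5 in clone 1, and 3 of 9 and 1 of 5 in clone 2. From 80 to 100 they were 1 of 17 and 0 of 14 in clone 1, and 2 of 17 and 0 of 14 in clone 2. In lists of equal length 11 of 37 large-subunit genes were absent in each clone, and 3 and 1 of 22 small-subunit genes in clone 1 and clone 2. The absent shares of all genes at equal length were 15.9% in clone 1 and 19.96% in clone 2. Genes are not replicates of a condition, so these counts carry no test.

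The absent genes were also counted by the evolutionary class of the protein. Among the universal proteins 6 of 22 genes with a control peak were absent in clone 1 and 6 of 22 in clone 2. Among the bacterial ones 5 of 15 and 6 of 15 were absent, and among those particular to mitochondria 6 of 28 and 7 of 28. For all genes with a control peak the absent shares were 21.1% in clone 1 and 30.1% in clone 2. With classes this small, little can be read from these counts. Each class held genes that were absent in both clones and genes that were found in both.

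The 8 members with no gene-end peak in any list were not all without a peak at their start. MRPL24, which encodes uL24m, has its RefSeq promoter start at position 156741088 of chromosome 1, inside the annotated gene, whose outer end is at 156742716. A peak covered that start in every list, with the scores 8.005 in clone 1, 13.6 in clone 2 and 13.1 in control. MRPL44 encodes mL44, which has the fold of a ribonuclease III, and its annotated span begins at position 223950854 of chromosome 2, whereas the promoter start is at 223957463. A peak covered that start too, with 6.15 in clone 1, 15.8 in clone 2 and 12.2 in control. Counting the RefSeq promoter start as a gene end, a choice made after the values were seen, gave 53 members with a peak in clone 1, 51 in clone 2 and 69 in control. It changed no absent count, since both genes were found in every list.

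The other 6 had no peak close by. Distances are from the transcript start, or from the nearer gene end for MRPL10, MRPL23 and MRPL35, which have no promoter entry. For MRPL12, which encodes the stalk protein bL12m, the nearest peak was 19190 bp away in clone 1, 36597 bp in clone 2 and 8376 bp in control. For MRPL10, which encodes the stalk protein uL10m, the distances were 9456, 64309 and 19365 bp in the same order of groups. MRPL23, which encodes uL23m beside the tunnel exit, lay 30807, 385399 and 8785 bp from the nearest peak. MRPL43, which encodes mL43, lay 11620, 55327 and 10007 bp away, and MRPL35, which encodes bL35m, lay 3768, 3772 and 3718 bp away. MRPS18B, in the HLA region of chromosome 6, lay 2174196 bp from the nearest clone 1 peak, 2127793 bp from the nearest clone 2 peak and 102395 bp from the nearest control peak. The span of MRPS18B with 1 Mb on each side holds 63 protein-coding genes, yet the lists had 0, 0 and 2 peaks there in clone 1, clone 2 and control. Peaks named to alternate contigs of chromosome 6 numbered 16, 12 and 52 and were not assigned to genes here. A member without a peak in that region was therefore not shown to be inaccessible.

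Neighbourhoods on chromosomes 6 and 17 were picked after the values were seen, because several absent members lay there. On chromosome 6, MRPS10, MRPL2, MRPS18A and MRPL14 lie between positions 42206807 and 44127452. All 4 were absent in clone 2, and MRPS10 and MRPS18A were absent in clone 1 as well. That span held 26 peaks in clone 1, 9 in clone 2 and 55 in control. Of its 45 protein-coding genes, the 4 members included, 33 had a control gene-end peak. Of those 33, 15 had none in clone 1 and 23 none in clone 2. For all genes on chromosome 6 the shares were 18.5% and 25.9%. The span of the same length just before MRPS10 held 12 peaks in clone 1, 6 in clone 2 and 26 in control. There, 7 of 12 genes with a control peak were absent in each clone. The 4 members thus lay in a span with few peaks in clone 2. On chromosome 17, the span of MRPL45 with 1 Mb on each side held 23 peaks in clone 1, 0 in clone 2 and 41 in control. Its 12 genes with a control gene-end peak were all without one in clone 2, and 8 of them were without one in clone 1. Over the whole of chromosome 17, 6 of the 8 members had a control peak, of which 3 were absent in clone 1 and 4 in clone 2. For all genes on chromosome 17 the shares were 36.1% and 57.5%, both above the shares over the genome.

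A larger share of members than of genes in general had a peak over the promoter. The promoter table gives a start for 69 of the 77 members and for 15812 genes in all. A peak overlapped the 300 bases of the promoter at 48 members in clone 1 (69.6%), 45 in clone 2 (65.2%) and 63 in control (91.3%). For all genes with an entry the shares were 47.3%, 39.8% and 57.3%. Both sets of shares count genes without any peak, so they also follow how many genes had one. Of the members' strongest gene-end peaks, 45 of 46 in clone 1, 44 of 46 in clone 2 and 62 of 62 in control had their centre within 500 bp of the start. For all genes the counts were 6718 of 8370, 6053 of 7247 and 7995 of 10011. Exceptions were small in number. At MRPL54, which encodes mL54, the strongest peaks lay at chr19:3761469-3761801 in clone 1, chr19:3762979-3763085 in clone 2 and chr19:3762599-3763170 in control. The clone 1 peak lies over the start of APBA3, 990 bp from that of MRPL54. A weaker clone 1 peak, scored 5.34 at chr19:3762690-3763268, lay 8 bp from the MRPL54 start. At MRPL51 the strongest clone 2 peak, chr12:6493787-6494083, was centred at −673 bp from the start, and a weaker one scored 9.52 covered the start. At MRPL36, which encodes bL36m, the strongest peak was at chr5:1799117-1800168 in clone 1 and chr5:1799172-1800224 in control, both over its start. In clone 2 it was at chr5:1801337-1801532, at the outer end of the annotated gene, 1500 bp from that start and also at an end of NDUFS6.

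**Figure D4:**
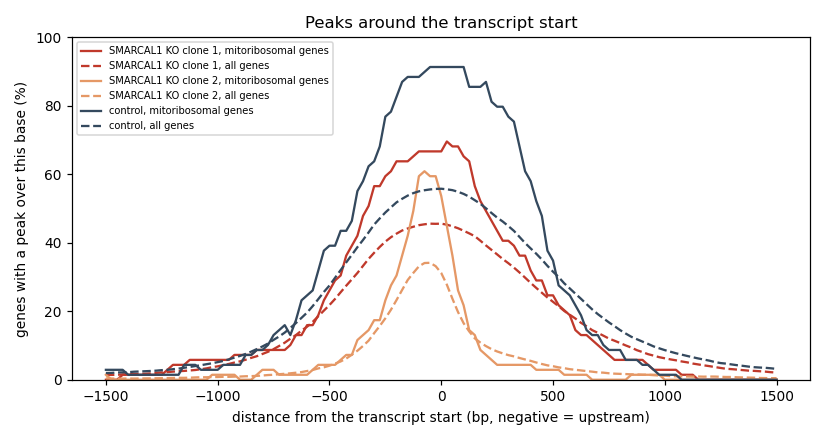
Share of genes (%, vertical axis) covered by a peak at each distance from the transcript start (bp, horizontal axis) in clone 1, clone 2 and control, for 69 mitochondrial ribosomal protein genes and for all genes with a promoter entry. The members' curves reach 69.6% at +25 bp in clone 1, 60.9% at −75 bp in clone 2 and 91.3% at −50 bp in control, against 45.6%, 34.1% and 55.8% for all genes.

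Many members share their promoter region with another gene. A protein-coding gene starting on the opposite strand within 1000 bp upstream, here called a divergent partner, was found for 18 of 69 members (26.1%), against 10.3% of all genes. The closest pairs were MRPL27 with EME1, an endonuclease gene (45 bp), and MRPL49 with FAU (49 bp). MRPL46 and MRPS11 form a pair of members: their starts lie 320 bp apart and a single peak covered both, with the scores 7.73 in clone 1, 15.8 in clone 2 and 14.5 in control. MRPL30 lies 126 bp from MITD1, MRPS12 lies 181 bp from SARS2, which encodes the mitochondrial seryl-tRNA synthetase, and MRPL18 lies 210 bp from TCP1, which encodes a subunit of the cytosolic chaperonin. MRPS27 lies 133 bp from PTCD2, whose protein acts on mitochondrial RNA, and MRPL32 lies 202 bp from PSMA2, which encodes a proteasome subunit. A peak between such starts counts for both genes. Of the 16 members with a partner and a control peak, 3 were absent in clone 1 and 2 in clone 2. For all genes with a partner the absent shares were 11.8% in clone 1 and 21.4% in clone 2. Of the 46 members without a partner, 14 were absent in clone 1 (30.4%) and 16 in clone 2 (34.8%), against 21.3% and 29.8% of all genes without one. The strongest peak also lay at another gene's end for 26 of 51 members in clone 1 (51.0%), 25 of 49 in clone 2 (51.0%) and 31 of 67 in control (46.3%), against 29.4%, 28.3% and 28.6% of all genes with a peak.

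Motifs of known promoter-binding factors were counted by exact match on both strands in the 300-base promoters. ETS factors, among them the subunit GABPA of nuclear respiratory factor NRF2, are known to act at nuclear genes for mitochondrial proteins. The ETS motif CCGGAAG was held by 29 of 69 member promoters (42.0%), against 14.2% of all promoters. YY1 binds near the start of many housekeeping genes, and its motif AAGATGGCG was held by 13 (18.8%), against 2.74%. At least 1 of these motifs was present at 38 member promoters (55.1%), against 16.3%. The ETS matches numbered 39, at a median position of −22 from the start, and the YY1 matches 14, at a median of 9.5 bases after the start. NRF1, a factor known for driving nuclear mitochondrial genes, has the motif GCGCATGCG, which was held by 3 members (MRPL17, MRPL22 and MRPS18C; 4.35%), against 2.76%. Its shorter core GCGCATG, which the longer motif contains, was held by 7 (10.1%), against 5.87%. The CCAAT box was at 20 (29.0%), against 36.3%, and the SP/KLF motif GGGCGG at 42 (60.9%), against 58.5%. The AP-1 motif TGANTCA was at 1 (MRPS35, 1.45%), against 5.76%, the TATA box TATAAA at 2 (MRPL54 and MRPS15, 2.90%), against 9.64%, and the CRE motif TGACGTCA at 0, against 2.59%. Matches are a description of the sequence and do not show that a factor bound there.

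The 4 promoters with the most marked matches in the printed stretch were chosen after the matches were counted, and are shown for how the motifs are arranged. Capitals mark ETS (CCGGAAG, or CTTCCGG on the other strand), YY1 (AAGATGGCG) and NRF1 (GCGCATG and GCGCATGCG, with overlapping matches run together).
MRPL17 (chr11:6683311-6683460, − strand): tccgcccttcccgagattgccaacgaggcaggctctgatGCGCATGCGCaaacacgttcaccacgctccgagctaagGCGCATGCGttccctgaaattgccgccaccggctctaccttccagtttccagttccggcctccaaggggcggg
MRPL52 (chr14:22829767-22829916, + strand): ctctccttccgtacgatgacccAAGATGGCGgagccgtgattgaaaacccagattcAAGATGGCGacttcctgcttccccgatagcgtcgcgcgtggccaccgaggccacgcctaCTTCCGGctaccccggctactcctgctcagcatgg
MRPS22 (chr3:139343874-139344023, + strand): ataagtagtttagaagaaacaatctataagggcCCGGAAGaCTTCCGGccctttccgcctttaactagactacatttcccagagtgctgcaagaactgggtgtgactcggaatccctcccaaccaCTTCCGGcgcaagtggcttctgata
MRPS34 (chr16:1773105-1773254, − strand): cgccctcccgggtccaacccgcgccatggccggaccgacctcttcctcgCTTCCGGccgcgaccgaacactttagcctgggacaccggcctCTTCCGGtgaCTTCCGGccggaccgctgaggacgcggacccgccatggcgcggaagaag
MRPS34 holds 3 ETS matches and had a control peak alone, scored 5.98, which lay upstream of the printed window at chr16:1773448-1773676. MRPS22, which encodes mS22, also holds 3 and had a peak in every list, with 5.14 in clone 1, 9.15 in clone 2 and 6.34 in control. The MRPS22 peak spanned chr3:139343856-139344741 in clone 1, chr3:139343920-139344028 in clone 2 and chr3:139343842-139344619 in control. MRPL52, which encodes mL52, holds 2 YY1 matches and 1 ETS match and scored 5.34 in clone 1, 11.8 in clone 2 and 6.48 in control. MRPL17, which encodes bL17m, holds the NRF1 matches and scored 9.95 in clone 1, 11.3 in clone 2 and 15.6 in control. Of the 2 promoters with 3 ETS matches, that of MRPS22 was thus overlapped by a peak in every list, in clone 2 only in part. The clone 2 peak began inside the printed window, and the ETS matches that begin at −87 and −79 from the start were not wholly under it. The MRPS34 promoter was under a peak in no list, control included.

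**Figure D5:**
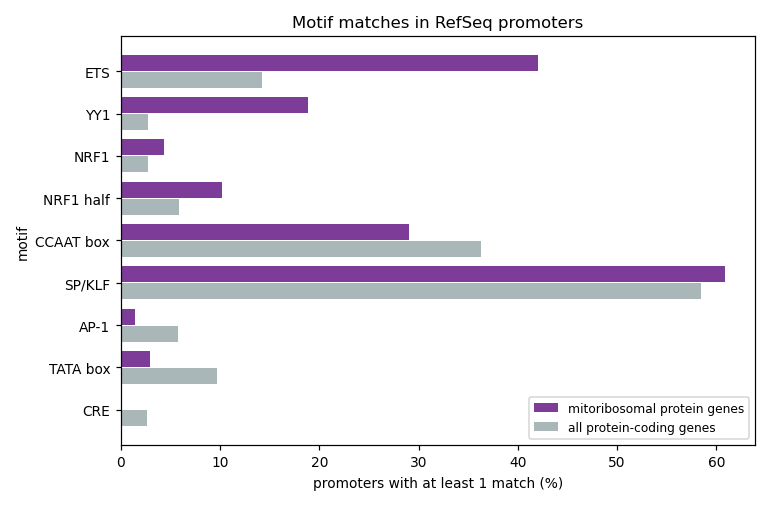
Share of promoters (%, horizontal axis) that hold each motif by exact match, for 69 mitochondrial ribosomal protein genes and for 15812 protein-coding genes. The ETS bars stand at 42.0% and 14.2% and the YY1 bars at 18.8% and 2.74%, while the SP/KLF bars stand at 60.9% and 58.5%.

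Both absent and retained members held the motifs. ETS matches were held by 7 of the 13 members absent in both clones and by 14 of the 40 with a peak in all lists and a promoter entry. YY1 matches were held by 3 of the 13 and 7 of the 40. By subunit, ETS matches were held by 18 of 44 large-subunit and 11 of 25 small-subunit promoters, and YY1 matches by 10 of 44 and 3 of 25. The members' promoters had a median GC content of 60.3%, against 62.7% for all promoters, and a median CpG ratio of observed to expected of 0.879, against 0.763.

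Genes that work with the mitochondrial ribosome were counted the same way from lists of textbook members. Over all protein-coding genes, 50.4% had a peak in clone 1, 43.2% in clone 2 and 60.9% in control. Of those with a control peak, 21.1% were absent in clone 1, 30.1% in clone 2 and 15.9% in both. Of 5 mitochondrial ribosomal proteins with other names, 3 had a peak in clone 1, 3 in clone 2 and 4 in control, and CHCHD1 was absent in both clones with a control score of 7.22. The list of mitochondrial aminoacyl-tRNA synthetases, which charge the tRNAs, also held GATB, GATC, QRSL1 and MTFMT, whose proteins modify charged tRNAs. Of its 23 genes, 18, 18 and 20 had a peak (78.3%, 78.3% and 87.0%). LARS2, the leucyl enzyme, was absent in both clones (6.97 in control). Of 16 translation factors, 14, 12 and 16 had a peak (87.5%, 75% and 100%). TACO1, a translational activator of COX1 (5.98 in control), and GFM2, a factor of ribosome recycling (7.77), were absent in both clones. Of 26 assembly and ribosomal RNA factors, 20, 17 and 25 had a peak (76.9%, 65.4% and 96.2%). NGRN (11.0), YBEY (5.80) and RCC1L (5.71) were absent in both clones. NGRN, which takes part in handling the mitochondrial ribosomal RNA, had the highest control score of these.

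Nuclear genes for the respiratory complexes and genes for the cytosolic ribosome had similar counts. The list of 81 nuclear genes for respiratory complexes held subunits and the UQCC genes, which encode assembly factors of complex III. Of the 81, 58 had a peak in clone 1 (71.6%), 54 in clone 2 (66.7%) and 71 in control (87.7%). In these, 13 were absent in clone 1, 17 in clone 2 and 9 in both. The 9 were ATP5PB, ATP5MG, NDUFB8, NDUFB1, NDUFA6, COX4I1, COX6B1, UQCR10 and UQCR11, which belong to ATP synthase and to complexes I, IV and III, with control scores of 5.06 to 7.54. Of 79 cytosolic ribosomal proteins, 58 had a peak in clone 1 (73.4%), 47 in clone 2 (59.5%) and 70 in control (88.6%). In these, 14 were absent in clone 1, 23 in clone 2 and 10 in both. The 10 were RPLP2, RPL7A, RPL11, RPL13, RPL23, RPL29, RPS2, RPS3, RPS16 and FAU, with control scores of 5.11 to 8.79, FAU through the peak it shares with MRPL49. Of genes with a control peak, 21.1% of all genes were absent in clone 1. The shares there were 25.4% for the mitochondrial ribosomal proteins, 18.3% for the respiratory complex genes and 20% for the cytosolic ribosomal proteins. In clone 2 they were 29.9%, 23.9% and 32.9%, against 30.1%. The shares absent in both clones were 19.4%, 12.7% and 14.3%, against 15.9% of all genes.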

How the data were processed

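Per the labels' protocols, ATAC-seq libraries were made from cultured cells lysed with NP-40. The deposited lists give each peak's position and score, already merged over the replicates of a group, per the labels. The submitters' processing notes name HISAT2, MACS2, ChIPseeker and the builds hg38 and mm10. No version or setting was found in the sources used here. No label gives the unit of the deposited score. It was read as the −log10 p that the authors' peak caller gave, with means where replicate peaks had been merged, because, of the 15 most frequent single-call scores, 10 in clone 1, 15 in clone 2 and 12 in control lay on steps of a Poisson tail. Scores served to rank peaks within a list. The total read depth is unknown, so no interval or floor is given.

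Gene positions, symbols, protein names and promoters came from RefSeq tables of GRCh38.p14. All 77 members matched by symbol, and 69 had a promoter. Coordinates are 1-based. Presence, overlaps and motifs were computed with Python 3.11.15, pandas 2.3.3 and numpy 2.4.6, and drawn with matplotlib 3.10.9. The overlap code was tested on simulated data. By rule, the text names the members absent or gained in a clone, those in no list and the 5 highest in each list, and of related lists those absent in or gained by both clones. Other members were named after their values were seen, as examples of low or uneven ranks, shared or displaced peaks and motifs. The members and the lists were chosen with earlier results of these data known. The related lists held 2 names, GTPBP5 and WBSCR16, that matched no symbol. Peaks on alternate contigs were not assigned to genes. Alternatives were other gene-end windows, the transcript start alone, stricter or equal-length lists, other overlap rules and a shorter promoter window.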

Additional observations from a re-analysis of the deposited data

How the results depend on the processing

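Of 65 recomputed values, 57 stayed within 1.5 times the reported count or rank, or within the exact binomial 95% interval of the reported motif share, and 8 did not. With peaks above the median score of their own list, 32 members had a peak in clone 2 instead of 49. Among all 19974 genes that count fell from 8624 to 5038. With lists of equal length, 12 members were absent in clone 2 instead of 20 and 7 in both clones instead of 13. All genes then had absent shares of 15.9% in clone 1, 19.96% in clone 2 and 9.36% in both, against 23.7%, 20.3% and 11.9% of the members. Requiring that a clone peak cover 50% of the control peak gave 59 members absent in clone 2, a count not made over all genes. Clone 2 peaks were the narrowest, with a median of 200 bp. In the 100 bases around the start, the CCAAT box was at 10.1% of the member promoters, SP/KLF at 26.1%, AP-1 at 0 and the TATA box at 0, in a window that is shorter by construction. The NRF1 core GCGCATG was at 5.80% there instead of 10.1%, within its interval but a change of more than 1.5 times. Gene-end windows of 500 and 3000 bp left 18 and 17 members absent in clone 1, and 20 and 18 in clone 2. In clone 1 those are shares of 26.9% and 25%, against 20.9% and 21.4% of all genes. In clone 2 they are 29.9% and 26.5%, against 31.0% and 30.6%. Counting the RefSeq promoter start as a gene end was chosen after seeing the data. No paired analysis was possible because each group has 1 merged list and no values per replicate, and no replicate could be left out. Absence cannot be told apart from a peak under the authors' threshold, where no score lies below 5.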
